A study of Rattus norvegicus with 8 samples.

Results

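The striated muscle miRNAs described here are 7 mature miRNAs, taken by name from the 719 rat miRNAs on the array: rno-miR-206-3p, rno-miR-133b-3p, rno-miR-1-3p, rno-miR-133a-3p, rno-miR-208a-3p, rno-miR-208b-3p and rno-miR-499-5p, written below without the prefix for the rat. The choice was by name and used no threshold on their levels, although earlier results of these data were known. They were measured in exosome-rich RNA from the serum of male specific pathogen-free Wistar rats, with 4 samples of reflux esophagitis (RE replicates 5, 8, 9 and 10) and 4 of sham-operated controls (control replicates 1, 2, 3 and 4). In RE rats, a ring of catheter around the duodenum and a ligature between forestomach and glandular stomach drove gastric contents into the esophagus. The labels give day 21 for the RE samples, and for the controls that day is taken from the methods of the study. Age was not given in the sources used here. Whether every sample is its own rat is not stated. The p-values thus reflect only how much these samples vary, and that variation may be technical.

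These miRNAs are often called myomiRs, because heart and skeletal muscle make far more of them than other tissues. miR-206-3p and miR-133b-3p are made together in skeletal muscle, miR-1-3p and miR-133a-3p in skeletal and cardiac muscle, and miR-208a-3p, miR-208b-3p and miR-499-5p lie within myosin heavy chain genes and are known mainly from the heart, the last 2 also from slow skeletal fibres. Each mature strand directs silencing of mRNAs that pair with its seed, and muscle injury is known to raise their amount in blood. The wall of the rat esophagus contains striated muscle, and no tissue was measured on these arrays, so the source of the serum signal is not given by the data.

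The mature sequences are shown because members of a pair differ by few bases, which bears on what each probe can tell apart. They are RefSeq's for the GRCr8 assembly, 5′ to 3′, with the seed (bases 2 to 8) in capitals, and all 7 members matched.
miR-206-3p: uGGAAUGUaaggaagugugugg
miR-1-3p: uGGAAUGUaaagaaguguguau
miR-133b-3p: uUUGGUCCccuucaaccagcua
miR-133a-3p: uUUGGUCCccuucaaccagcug
miR-208a-3p: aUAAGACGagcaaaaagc
miR-208b-3p: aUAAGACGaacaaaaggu
miR-499-5p: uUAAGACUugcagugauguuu

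miR-206-3p and miR-1-3p shared the seed GGAAUGU, miR-133b-3p and miR-133a-3p shared UUGGUCC, and miR-208a-3p and miR-208b-3p shared UAAGACG. miR-499-5p had UAAGACU, which shares its first 6 bases (UAAGAC) with the miR-208 seed. With positions counted from 1 at the 5′ end, miR-206-3p differed from miR-1-3p by A11G, A21G and U22G. miR-133b-3p differed from miR-133a-3p by G22A only, and miR-208b-3p differed from miR-208a-3p by G10A, A16G and C18U. None of these differences lay in a seed.

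On the rn4 build used by the array's design, the probes placed miR-206-3p at chr9:19402041-19402056 and miR-133b-3p at chr9:19405920-19405938, with 3864 bases between them. miR-133a-3p lay at chr18:2189273-2189288 and miR-1-3p at chr18:2191725-2191745, with 2437 bases between them. In the GRCr8 annotation both overlap Mib1, an E3 ubiquitin ligase gene. miR-208a-3p lay at chr15:33052008-33052023 and miR-208b-3p at chr15:33078078-33078094, with 26055 bases between them. Their loci overlap Myh6 and Myh7, which encode the alpha and beta cardiac myosin heavy chains and whose introns are known to hold these miRNAs. miR-499-5p lay at chr3:146127965-146127983, in a locus that overlaps the related Myh7b. These genes are given for background only, since the array measured no mRNA.

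Each member had 20 spots per array, printed from 2 probes (3 for miR-208b-3p). The probes are complementary to the 3′ part of the miRNA, and those of miR-133b-3p and miR-133a-3p are shown because each had only 1 mismatch with the other miRNA.
miR-133b-3p probe of 19 bases: tagctggttgaaggggacc
miR-133a-3p probe of 16 bases: cagctggttgaagggg
The probes of miR-206-3p and miR-1-3p had at least 3 mismatches with the other, and so did those of miR-208a-3p and miR-208b-3p. How far the miR-133 probes read each other's miRNA was not tested. Of the 1120 spots of the members on the 8 arrays, 0 were saturated and 26 carried the software's outlier mark.

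The arrays differed in overall brightness. The RE arrays detected 245, 229, 144 and 197 miRNAs (replicates 5, 8, 9 and 10), against 232, 232, 212 and 215 on the control arrays. Signals were therefore divided by a scale factor for each array, the 75th percentile of the 144 miRNAs that all 8 arrays detected. It was between 239 and 1080 in RE and between 494 and 915 in controls. The scaled value is called the scaled signal below, and 1 means the level of that percentile. RE replicate 9 was the dimmest array, and the lowest scaled signal detected on it for any miRNA was 0.0193. That value was 0.00350 to 0.01004 on the other RE arrays and 0.00440 to 0.00681 on the control arrays. An miRNA that was not detected on an array was set to a floor of 0.00350, the dimmest scaled value detected on any array (log2 value of -8.16). Since serum RNA is a mixture, fewer vesicles from a cell type and fewer copies per vesicle cannot be told apart.

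Detection of the muscle miRNAs was lower in RE. Of the 28 pairs of a member and an array in each group, 16 were detected in RE and 25 in controls. RE replicates 5, 8, 9 and 10 detected 7, 5, 1 and 3 of the 7 members, against 7, 5, 7 and 6 on control replicates 1, 2, 3 and 4. Fewer RE than control arrays detected 6 of the 7 members. The same held for 89 of the 279 miRNAs detected on at least 1 array (31.9%). Of those 279, 144 were detected on all 8 arrays and so could not differ, as was miR-133b-3p among the members. By role, 7 of 8 pairs were detected in RE and 8 of 8 in controls for the skeletal members. The numbers were 5 of 8 in RE and 8 of 8 in controls for the members shared by both muscles. For the cardiac members they were 4 of 12 in RE and 9 of 12 in controls. Of these, miR-208a-3p had 1 in RE and 4 in controls, miR-208b-3p 2 and 3, and miR-499-5p 1 and 2. Where detected, the cardiac members had total signals of 5.64 to 28.3. The skeletal members had 32.3 to 133 (miR-206-3p) and 129 to 2645 (miR-133b-3p). The part of brightness in this split by role was not tested. The same arrays with fewer members detected, RE replicates 9 and 10, also detected the fewest miRNAs of all kinds, and the part of this in the counts was not tested. The counts themselves carry no test.

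**Figure D1:**
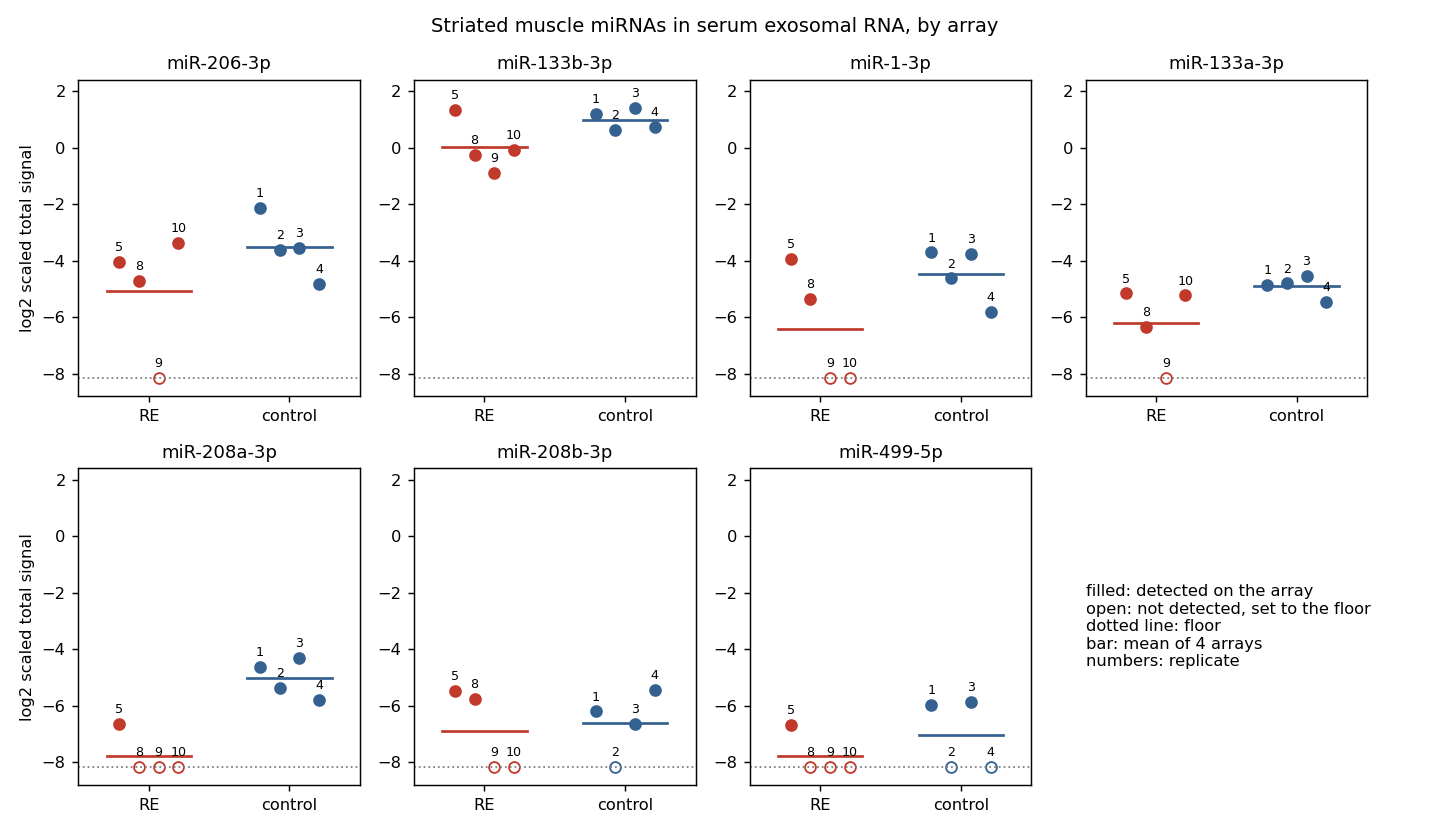
Log2 scaled total signal of the 7 muscle miRNAs (y axis) on each array, RE on the left and control on the right, with the replicate number at each point and a bar at the mean of 4 arrays. Open points on the dotted line were not detected and stand at the floor of -8.16, and miR-208a-3p has 1 filled point in RE and 4 in controls.

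Among the skeletal members, miR-133b-3p, of a family that acts on the growth and differentiation of muscle precursors, was the only one of the 7 detected on all 8 arrays. Its total signal was 2645, 909, 129 and 420 in RE replicates 5, 8, 9 and 10, against 1330, 759, 1483 and 1507 in control replicates 1, 2, 3 and 4. The scaled signal was 2.51, 0.841, 0.540 and 0.951 in RE, against 2.28, 1.54, 2.66 and 1.65 in controls. RE replicates 8, 9 and 10 were below every control, while RE replicate 5 was within the range of the controls, so the groups overlapped. The mean log2 scaled signal was 0.03 ± 0.94 in RE and 0.98 ± 0.38 in controls (SD, n = 4 each). The log2 fold change was -0.95 ± 0.48 (SE, 95% interval -2.04 to 0.14) and did not pass (limma adjusted p = 0.870), and scaling as the methods describe turned it to 0.74. In that setting the median of all 192 tested miRNAs was also above 0, at 1.39. Its percentile was taken over all 719 rat miRNAs on the array. RE replicate 9 detected 144 of them, so it was divided by 0.1, the value given to an undetected miRNA. The other arrays were divided by a detected signal, so the change of sign is no measure of a higher level in RE. Without RE replicate 5 the log2 fold change was -1.39 (adjusted p = 0.393 from limma), and without RE replicate 9 it was -0.53 (adjusted p = 0.913).

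The 2 probes of miR-133b-3p gave similar differences, with a log2 fold change of -1.05 for the probe of 18 bases and -0.94 for that of 19 bases. As a share of the summed signal of the array, miR-133b-3p took 1.07%, 0.339%, 0.167% and 0.277% in RE replicates 5, 8, 9 and 10, against 0.677%, 0.435%, 0.863% and 0.564% in control replicates 1, 2, 3 and 4. By share, RE replicate 5 was above every control, whereas its scaled signal was within their range. The other RE replicates were below every control by both measures.

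miR-206-3p, which is restricted to skeletal muscle and promotes its differentiation, was detected on 3 RE and 4 control arrays. Its total signal was 63.6, 41.4 and 42.5 in RE replicates 5, 8 and 10, against 133, 40.3, 47.2 and 32.3 in control replicates 1, 2, 3 and 4. The scaled signal was 0.0604, 0.0383 and 0.0960 in those RE replicates, against 0.228, 0.0816, 0.0847 and 0.0353 in controls. The detected RE values all lay within the range of the controls. With RE replicate 9 at the floor, the log2 fold change was -1.54 ± 1.02 (SE, limma adjusted p = 0.912). Without RE replicate 9 it was -0.40.

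On RE replicate 9, miR-206-3p had 20 of 20 spots above the local background although it was not detected. Its summed probe signal there was 14.3, or 0.0600 scaled, which is also within the range of the controls. The software counts a probe only when its signal is more than 3 times its error and gives 0.1 for an miRNA with no such probe. With all probes summed, detected or not, the log2 fold change of miR-206-3p was -0.51 (adjusted p = 0.991 from limma).

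Among the members shared by skeletal and cardiac muscle, miR-1-3p, which promotes differentiation of both, was detected on 2 RE and 4 control arrays. Its total signal was 68.3 and 26.5 in RE replicates 5 and 8, against 44.5, 19.9, 40.7 and 16.2 in control replicates 1, 2, 3 and 4. Scaled, it was 0.0649 and 0.0245 in those RE replicates, against 0.0763, 0.0404, 0.0729 and 0.0177 in controls. Where it was detected in RE, it lay within the range of the controls. The log2 fold change with RE replicates 9 and 10 at the floor was -1.92 ± 0.99 (SE, limma adjusted p = 0.870). It was -1.18 without RE replicate 9 and -1.05 with all probes summed. The summed probes gave 0.0147 and 0.0121 scaled on RE replicates 9 and 10, against a lowest control value of 0.0225.

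miR-133a-3p, which restrains growth of cardiac muscle, was detected on 3 RE and 4 control arrays. The total signal was 29.4, 13.2 and 11.8 in RE replicates 5, 8 and 10, against 20.2, 17.6, 23.8 and 20.9 in control replicates 1, 2, 3 and 4. The scaled signal was 0.0279, 0.0123 and 0.0266 in those RE replicates, against 0.0347, 0.0357, 0.0427 and 0.0228 in controls. All 4 RE values were below the mean of the controls, but control replicate 4 was below RE replicates 5 and 10. The log2 fold change was -1.31 ± 0.64 (SE, limma adjusted p = 0.870), and -0.55 without RE replicate 9. Its shorter probe, of 15 bases, was detected on 0 arrays, so all of its signal came from the probe of 16 bases.

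The cardiac member miR-208a-3p, which tunes the heart's choice of myosin heavy chain, was the only member that passed the test, and it fell in RE. It was detected on 1 RE and 4 control arrays, so it entered the test only through the controls, where it was high. Its total signal was 10.5 in RE replicate 5, against 23.4, 12.0, 28.3 and 16.4 in control replicates 1, 2, 3 and 4. The scaled signal was 0.00997 in RE replicate 5, against 0.0401, 0.0243, 0.0507 and 0.0179 in controls. That value, the only RE value measured, was below every control. The other RE arrays were placed below every control by the floor. Of these, RE replicates 9 and 10 could have missed the level of control replicate 4, as described below. The mean log2 scaled signal was -7.78 ± 0.76 in RE, with 3 arrays at the floor, and -5.03 ± 0.68 in controls (SD, n = 4 each). The log2 fold change was -2.76 ± 0.48 (SE, 95% interval -3.85 to -1.66, limma adjusted p = 0.0307). Its size depends on the floor, since 3 of the 4 RE values were not measured. The call also depended on the filter: it was lost when all miRNAs detected on at least 1 array were tested (adjusted p = 0.0549 from limma) and with no filter (adjusted p = 0.451).

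The call rule was met by 1.04% of the 192 tested miRNAs in the direction of lower RE, or 2 miRNAs, and by 0% in the direction of higher RE. The other was miR-455-5p, which is not one of the 7 members and is named only because the count is small. At an unadjusted p under 0.05 from limma, 2.6% of the tested miRNAs were lower in RE (5, with miR-208a-3p the only member among them) and 0 were higher. Lower RE values without overlap, with values at the floor counted, were found in 1.56% of them. The two-sided exact permutation test over the 70 splits of the 8 arrays gave p = 0.0286 for miR-208a-3p, which is the smallest p that 4 arrays against 4 can give. Adjusted over the 192 miRNAs it was 0.944, and this test called 0 miRNAs, with 3 at an unadjusted exact p under 0.05.

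The counts of spots and the sums of probe signals of miR-208a-3p, which need no floor, were lower in RE. The shares given below are of the tested miRNAs, of which 48 passed the filter only through the controls and 0 only through RE. miR-208a-3p was among those 48. Its counts and sums come from the same spots and probes as its total signal, so they are not a separate test of the difference. Of its 20 spots, 13, 7, 1 and 5 were above the local background on RE replicates 5, 8, 9 and 10, against 20, 14, 20 and 19 on control replicates 1, 2, 3 and 4. The groups did not overlap, as for 1.56% of the tested miRNAs in this measure. Its summed probe signal was 11.9, 3.07, -1.998 and 2.32 in RE, where a negative value means below background, against 29.6, 14.3, 35.2 and 21.5 in controls. Here too every RE array was below every control, both before scaling, where 2.08% of the tested miRNAs had lower RE values without overlap, and after it, where 1.04% did. A log2 value again needs a floor, as for RE replicate 9, whose sum was negative. With such a floor, the log2 fold change of the summed signal was -3.41, and the call was lost (adjusted p = 0.0793 from limma).

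The call also ended under other settings. With each array's own lowest detected signal as its floor, the log2 fold change was -1.76 (adjusted p = 0.704 from limma). With the normexp background correction, which added an offset of 50, it was -0.28 (adjusted p = 0.9998 from limma). The mean spot signal of miR-208a-3p was at most 26.6 on any array. Such an offset shrinks its log2 differences in advance, so that setting cannot decide whether it fell. On RE replicate 9 the lowest scaled signal detected for any miRNA, 0.0193, was above the 0.0179 measured for miR-208a-3p in control replicate 4. The 16-base probe that gave its signal had errors of 2.79 and 2.77 before scaling on RE replicates 9 and 10. Scaled, 3 times that error was above control replicate 4 on both arrays. On RE replicate 9 it was also above the 0.0243 of control replicate 2. Those arrays could thus have missed such levels. The call was lost without RE replicate 8 (adjusted p = 0.120) or RE replicate 10 (0.0987) and without control replicate 1 (0.145), 2 (0.0960) or 3 (0.137), with log2 fold changes between -3.12 and -2.47 over the 8 arrays left out in turn. It was kept without RE replicate 9, the dimmest array (log2 fold change -2.47, adjusted p = 0.0430 from limma). The fold change was negative in all 27 alternatives, and the call was kept in 6 of them.

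**Figure D2:**
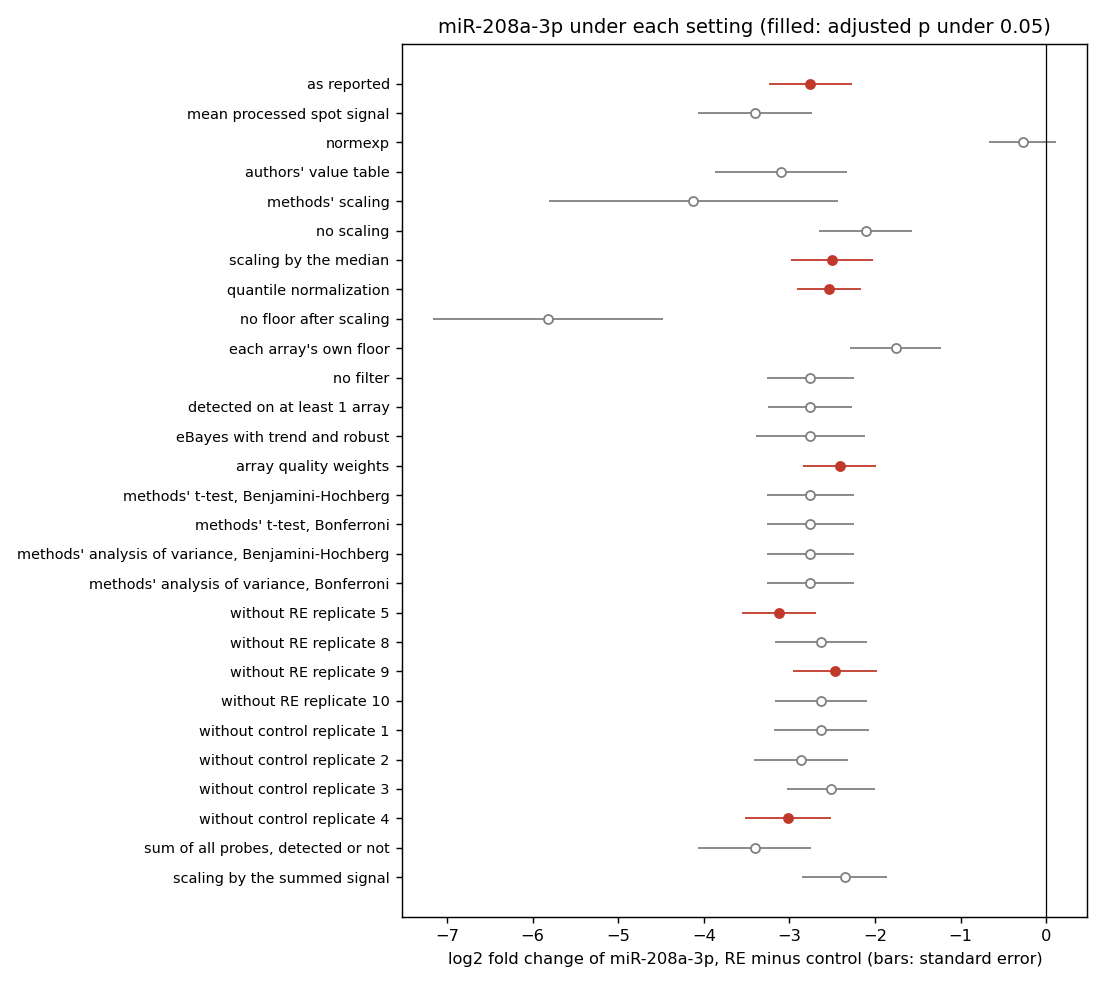
Log2 fold change of miR-208a-3p, RE minus control (x axis), with its standard error as a bar, under the reported setting and each of 27 alternatives (y axis). Filled points have an adjusted p under 0.05, and all points lie below 0, from -5.82 to -0.28.

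miR-208b-3p, which is carried by the gene of the slow myosin heavy chain, was detected on 2 RE and 3 control arrays and was not tested, because neither group had it on all arrays. Its total signal was 23.9 and 20.1 in RE replicates 5 and 8, against 7.96, 5.64 and 21.2 in control replicates 1, 3 and 4. The scaled signal was 0.0227 and 0.0186 in those RE replicates, against 0.0136, 0.0101 and 0.0232 in controls, so the groups overlapped. With no filter, its log2 fold change was -0.28 ± 0.93 (SE, 95% interval -2.56 to 1.999, limma adjusted p = 0.834). Without control replicate 2, which had not detected it, it passed the filter, with a log2 fold change of -0.80 (adjusted p = 0.994 from limma). With all probes summed it gave 23.9, 20.1, 1.08 and 6.61 in RE replicates 5, 8, 9 and 10, against 16.2, 7.18, 12.3 and 21.2 in control replicates 1, 2, 3 and 4. Scaled, these sums were 0.0227, 0.01865, 0.00451 and 0.01495 in RE, against 0.0278, 0.0145, 0.0221 and 0.0232 in controls. They also overlapped, with RE replicate 9 the lowest of the 8 arrays. Whether miR-208a-3p and miR-208b-3p differed in their response was not tested.

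miR-499-5p, which is carried by the Myh7b locus and acts with the miR-208 miRNAs in fibre type, was detected on 1 RE and 2 control arrays and was not tested either. The total signal was 10.2 in RE replicate 5, against 9.27 and 9.49 in control replicates 1 and 3. The lowest signals that the arrays detected for any miRNA were between 3.68 and 4.60 in RE and between 3.29 and 4.02 in controls. The limit for miR-499-5p was higher, since its 19-base probe had errors of 2.15 to 2.79 and counts only above 3 times its error. On RE replicate 8 that probe gave 7.45, or 2.99 times its error, and was not counted. With no filter, its log2 fold change was -0.75 ± 0.74 (SE, 95% interval -2.55 to 1.06, limma adjusted p = 0.451). Of its 20 spots, 14, 15, 1 and 4 were above background on RE replicates 5, 8, 9 and 10, against 14, 14, 17 and 10 on control replicates 1, 2, 3 and 4, so RE replicates 5 and 8 were within the range of the controls.

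**Figure D3:**
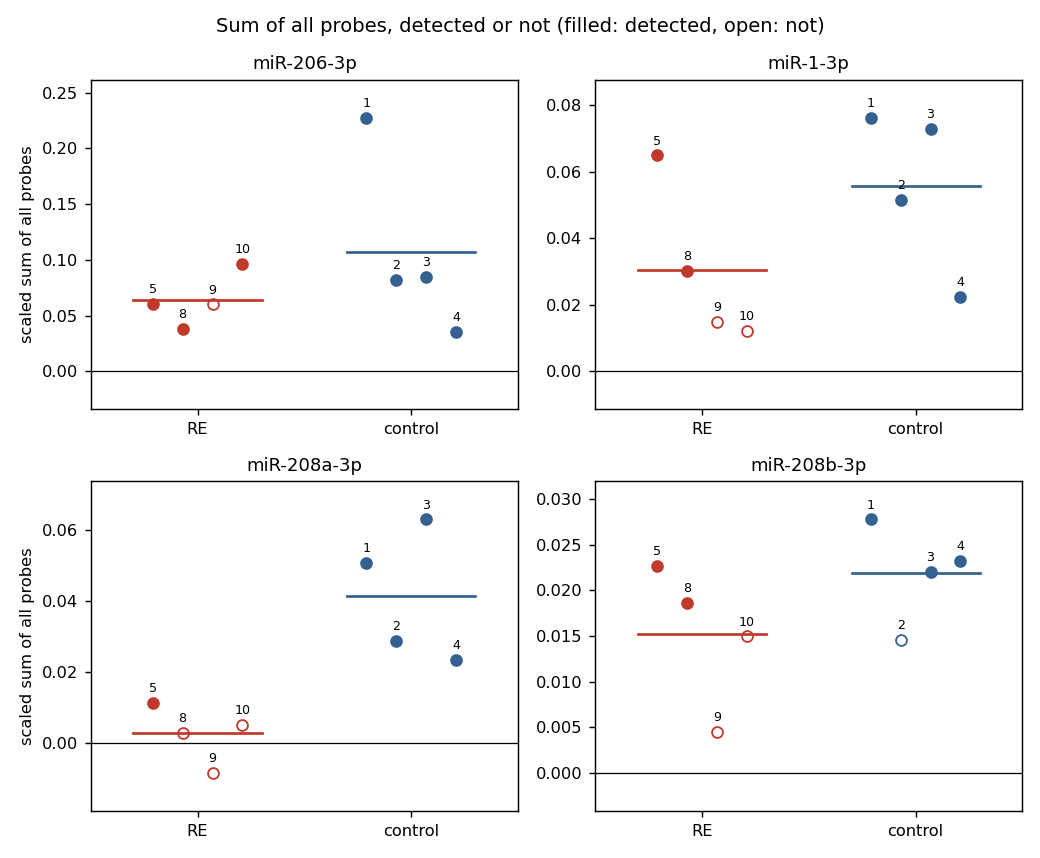
Scaled sum of all probes, detected or not (y axis, linear), for 4 muscle miRNAs on each array, RE on the left and control on the right, with replicate numbers and a bar at the mean of 4 arrays. Filled points were detected and open points were not, and the groups do not overlap for miR-208a-3p but overlap for the other 3.

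**Figure D4:**
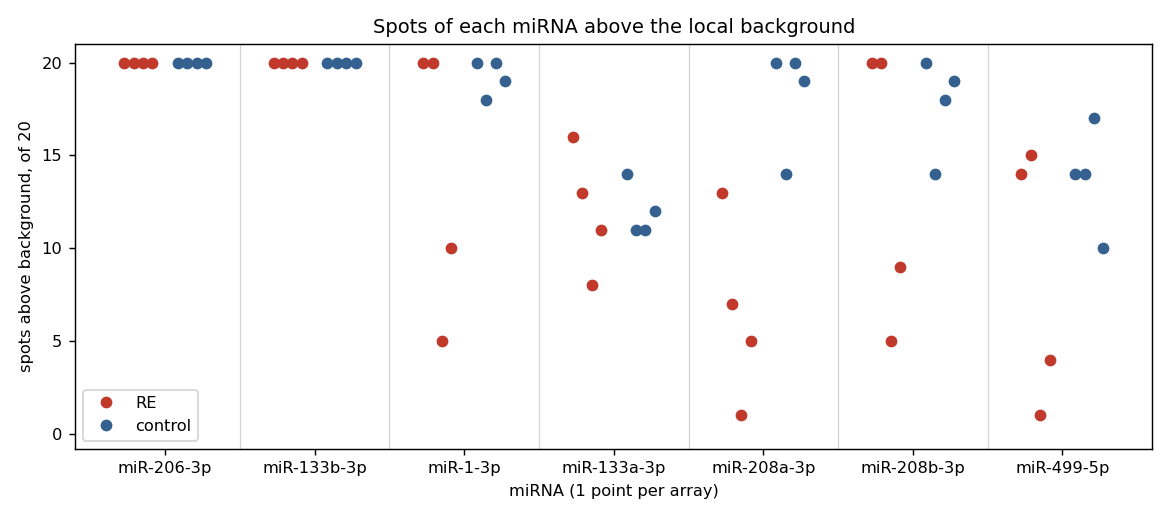
Number of the 20 spots of each muscle miRNA above the local background (y axis), with 1 point per array, RE left of control for each miRNA. miR-206-3p and miR-133b-3p have 20 spots on every array, while miR-208a-3p has 1 to 13 in RE and 14 to 20 in controls.

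Of the 7 members, 5 could be tested and 2 were not. Of the 5, miR-208a-3p fell under this filter and floor, 0 rose and 4 did not pass. All 5 tested members had a negative log2 fold change, as did 156 of the 192 tested miRNAs (81.3%). The median was -1.54 over the 5 members and -0.29 over all 192. Of these 5 members, 4 passed the filter only because the controls detected them on all arrays, as 48 of the 192 miRNAs did (25%), and so stood at the floor on at least 1 RE array. The median of those 48 was -1.02, and that of the 144 miRNAs detected on all 8 arrays was -0.19. The median of the tested members was -0.55 without RE replicate 9.

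**Figure D5:**
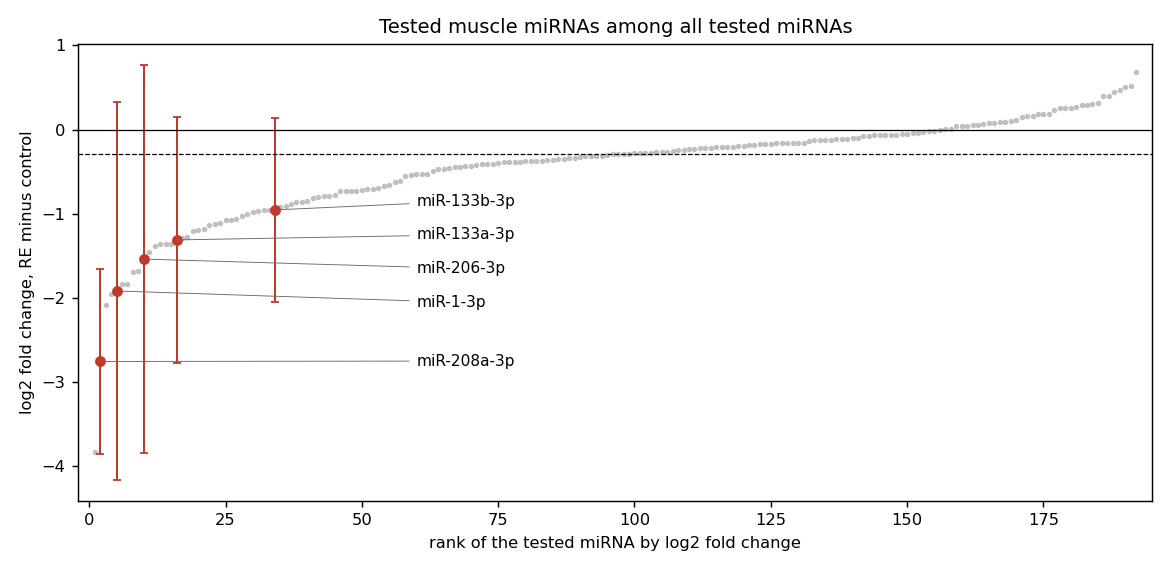
Log2 fold change, RE minus control (y axis), of the 192 tested miRNAs in order of their value (x axis, rank), with the 5 tested muscle miRNAs in red and their 95% intervals. The dashed line is the median of all tested miRNAs at -0.29, and of the 5 intervals only that of miR-208a-3p lies wholly below 0.

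Other products of the same hairpins were given by the opposite arms. Of 10 other arms and copies listed, 7 were on the array and 2 could be tested, of which 0 passed. miR-208a-5p, from the same hairpin as miR-208a-3p, was detected on all 8 arrays. Its total signal was 188, 92.6, 87.0 and 141 in RE replicates 5, 8, 9 and 10, against 121, 184, 113 and 119 in control replicates 1, 2, 3 and 4. The groups overlapped, with a log2 fold change of -0.05 ± 0.53 (SE, limma adjusted p = 0.971). The difference between the 2 arms was not tested. miR-1-5p was also detected on all 8 arrays, at 23.2, 22.2, 9.07 and 24.8 in RE and 19.4, 29.3, 18.9 and 22.4 in controls, with a log2 fold change of -0.19 ± 0.43 (SE, limma adjusted p = 0.927). miR-133a-5p was detected on 2 RE and 3 control arrays, and miR-133b-5p, miR-206-5p, miR-208b-5p and miR-499-3p were detected on 0 arrays.

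Of 13 other miRNAs that act in striated muscle but are made in many tissues, 11 were on the array and 9 were tested, with 0 lower, 0 higher and a median log2 fold change of -0.16. The lowest was miR-221-3p, at -0.92 (SE 0.67) with RE replicate 9 at the floor, and the highest miR-26a-5p, at 0.51 (SE 0.36). Neither passed (adjusted p = 0.912 for both from limma). Between them, miR-378b was at -0.17 (SE 0.41, limma adjusted p = 0.927).

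Over the 8 arrays, the scaled log2 signal of miR-133b-3p was compared with the other 143 miRNAs detected on all arrays. The 3 most alike were miR-22-3p (Pearson r = 0.88), miR-30a-5p (0.69) and miR-195-5p (0.68), which is a description over 8 arrays that share their scaling. miR-22-3p, which is made in many tissues including muscle and platelets, had scaled signals of 5.70, 4.41, 3.50 and 3.96 in RE replicates 5, 8, 9 and 10, against 6.02, 5.43, 4.95 and 4.79 in control replicates 1, 2, 3 and 4. As for miR-133b-3p, RE replicate 5 was within the range of the controls and the other RE replicates were below it.

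Markers of other cells in serum and of other muscle were set beside these values. In the smooth muscle, red blood cell, platelet, leukocyte and liver lists, 0 members passed in either direction. For smooth muscle, miR-143-3p had a log2 fold change of -0.43 (adjusted p = 0.912 from limma) and miR-145-5p was detected on 0 arrays. The summed scaled signal of the liver list was 0.322 to 0.384 in RE and 0.368 to 1.13 in controls, and miR-194-5p was detected on 0 arrays. The 2 tested members of the liver list had a median log2 fold change of -1.40. Of these, miR-122-5p, the main miRNA of hepatocytes, was detected on 3 RE and 4 control arrays and had a log2 fold change of -2.08 ± 1.08 (SE, limma adjusted p = 0.870), with RE replicate 9 at the floor. For red blood cells the summed scaled signal was 7.43 to 18.3 in RE and 8.71 to 21.8 in controls. For platelets it was 3.70 to 6.28 in RE and 5.01 to 6.28 in controls, and for leukocytes 4.47 to 9.40 in RE and 4.39 to 7.31 in controls. Most of the platelet sum was miR-22-3p, as on RE replicate 9 (3.50 of 3.70). The other platelet members went opposite ways, with log2 fold changes of 0.26 for miR-126a-3p and -1.13 for miR-191a-5p, and neither passed. All of the summed ranges overlapped, and the part of these cells in the values of the muscle miRNAs was not tested.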

How the data were processed

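Serum exosome-rich RNA (ExoQuick, then miRNeasy) of 4 RE and 4 sham-operated samples was labelled with Cy3, with 1 sample per array (Agilent Rat miRNA Microarray), on 1 slide and in 1 scan. The authors extracted intensity values with Agilent Feature Extraction 10.10.1.1. The deposited intensity per miRNA (total gene signal) is background-subtracted, not scaled between arrays, and adds only the probes above 3 times their error (true of 1706 of 1706 detected values, relative tolerance 0.001). The deposited value table equals the processed spot intensity.

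The total signal was divided by the 75th percentile of the 144 miRNAs that every array detected, floored and taken to log2. The 192 miRNAs found on every array of RE, of controls or of both were tested in limma 3.58.1 (R 4.3.3) with the default prior, two-sided, with Benjamini-Hochberg adjustment over all of them at 0.05. Undetected values entered the fit at the floor. The limma fit was tested on simulated data for the 144 miRNAs detected on all 8 arrays. The simulation set no undetected values to the floor, so it does not cover members that stood there. Tables used pandas 2.3.3 and figures matplotlib 3.10.9. The methods of the study set values below 0.01 to 0.01, divided by the 75th percentile, and used analysis of variance or an unequal-variance test with Bonferroni correction. The scaling and the tests were run as separate alternatives. That scaling was fitted in limma with Benjamini-Hochberg adjustment, and those tests used the scaled and floored values of this report. Their combination was not run.

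All 7 members are named, with the 3 miRNAs most correlated with each member detected on all 8 arrays. The members and lists were chosen with earlier results of these data known. The groups share no replicate number. With 4 arrays per group, the number of arrays limits the precision.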

Additional observations from a re-analysis of the deposited data

How the results depend on the processing

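No paired analysis was possible because the groups share no replicate number. As reported, 2 miRNAs were lower in RE. That count was 0 with the mean processed spot signal, normexp with an offset of 50, the authors' value table and the methods' scaling. It was also 0 with each array's own floor, the filter to miRNAs detected on all 8 arrays, and the sum of all probes. It was 1 with no scaling, a filter to detection on at least 1 array, no filter, eBayes with trend and robust, scaling by the summed signal, and the methods' t-test and analysis of variance, each with Benjamini-Hochberg or Bonferroni adjustment. It was 3 with array quality weights, and leaving out each array in turn gave 1 to 2. The count of higher miRNAs was 0 in all 28 alternatives, and the cause of these changes was not tested. The log2 fold change of miR-133b-3p was 0.74 under the methods' scaling and below 0 in the other 27 of 28 alternatives. Under the methods' scaling, RE replicate 9 was divided by 0.1, the value of an undetected miRNA. Those of miR-206-3p, miR-1-3p, miR-133a-3p and miR-208a-3p were below 0 in all 27 alternatives that could give them. The sum of all probes and scaling by the summed signal were chosen after seeing the data. The median of all tested miRNAs was -0.29 as reported, -0.08 with scaling by the median and -0.11 with the summed signal. Dim signal limited the comparison: 6 of the 7 members were not detected on every array, and RE replicate 9 detected 1 of them.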
